A study of Mus musculus with 135 samples.

Results

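The genes described here are 7 members of the MHC class II antigen presentation machinery, out of the 55416 genes in each of the count tables for cortex and hippocampus: H2-Aa, H2-Ab1, H2-Eb1, Cd74, Ciita, H2-DMa and H2-DMb1. The genes were taken by symbol, but the family was proposed with earlier results of these data known, so that the tests are no independent evidence for it. Single libraries were selected on the summed CPM of H2-Aa, H2-Ab1, H2-Eb1 and Cd74 relative to their group, and are therefore described without a test. The study sequenced bulk polyadenylated RNA from adult male Townes mice, in which human globin genes stand in place of the mouse ones, either with the sickle allele (SS) or with the normal adult allele (AA), so that both genotypes carry the replacement and there was no unmodified mouse. Mice were left untreated (AA, SS), were exposed to repeated social defeat (RSD), in which an aggressive male intruder is placed into the cage of the resident males on consecutive evenings (AA + RSD, SS + RSD), were exposed to RSD while receiving the tetracycline antibiotic minocycline in the drinking water (AA + RSD + minocycline, SS + RSD + minocycline), or received minocycline alone (SS + minocycline). The fits held 66 cortex and 64 hippocampus libraries. In the cortex the groups were 8 SS mice, 6 with RSD, 14 with RSD and minocycline and 4 with minocycline alone, beside 12 AA mice, 3 with RSD and 18 with RSD and minocycline. The hippocampus had 7 SS and 11 AA untreated mice and otherwise the same numbers. The remaining library of each tissue came from a single AA mouse on minocycline alone, which formed no group and entered no contrast. Cortex libraries held 16295042 to 107713193 reads on genes and hippocampus libraries 12869149 to 68731008. Levels are given as CPM, the reads of a gene scaled to a fixed total of reads on genes in its library.

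MHC class II molecules are heterodimers of an alpha and a beta chain that present peptides from the endosomal pathway to CD4 T cells. The chains of the I-A molecule are encoded by H2-Aa and H2-Ab1, and H2-Eb1 encodes the beta chain of I-E. Cd74 encodes the invariant chain, which fills the peptide groove until the complex reaches the endosome, where the H2-DM heterodimer of H2-DMa and H2-DMb1 exchanges the remaining fragment for peptide, and Ciita is the transactivator that these promoters need and that is itself made mainly by antigen-presenting cells. In the brain the known carriers are macrophages of the borders and vessels, dendritic cells and B cells, whereas resting microglia hold little class II. In bulk tissue, fewer cells of a type and less RNA per cell cannot be told apart.

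Class II promoters are known for a conserved X box and Y box read together by the RFX and NF-Y complexes and the CREB family. Promoter windows from RefSeq, on build GRCm38.p6 and reaching from 250 bases before to 50 after a transcription start, were at hand for 4 members, and 3 were without one (H2-Ab1, Cd74, Ciita). The 3 letter strings were chosen after the sequences had been seen and were searched on both strands with no overlap between them, namely a Y box core TGATTGG, an X box core AACNGATG and a cyclic AMP response element TGACGTCA. The windows are shown because the 2 class II chains and H2-DMb1 can be set beside H2-DMa, whose levels followed those of the other members least. Capitals mark the strings that were found.
H2-Aa (chr17:34287774-34288073, minus strand): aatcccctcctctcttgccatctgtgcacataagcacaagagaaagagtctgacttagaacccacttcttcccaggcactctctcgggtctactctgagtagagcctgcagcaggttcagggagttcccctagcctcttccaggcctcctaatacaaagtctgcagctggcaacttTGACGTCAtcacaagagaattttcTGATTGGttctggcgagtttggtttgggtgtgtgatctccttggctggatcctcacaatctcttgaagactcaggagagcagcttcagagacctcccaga
H2-Eb1 (chr17:34305617-34305916, plus strand): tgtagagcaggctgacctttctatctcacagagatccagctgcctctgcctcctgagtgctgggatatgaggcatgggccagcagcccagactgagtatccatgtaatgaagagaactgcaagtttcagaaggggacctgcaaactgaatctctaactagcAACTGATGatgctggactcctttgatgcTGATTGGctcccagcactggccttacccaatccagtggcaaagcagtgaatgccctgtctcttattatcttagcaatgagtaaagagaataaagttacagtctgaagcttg
H2-DMb1 (chr17:34152941-34153240, plus strand): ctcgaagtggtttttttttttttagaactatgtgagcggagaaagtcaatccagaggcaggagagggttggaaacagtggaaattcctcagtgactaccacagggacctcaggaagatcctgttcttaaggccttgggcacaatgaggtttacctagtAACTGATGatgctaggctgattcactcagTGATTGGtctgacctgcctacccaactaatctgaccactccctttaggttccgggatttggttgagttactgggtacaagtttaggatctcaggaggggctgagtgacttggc
H2-DMa (chr17:34122582-34122881, plus strand): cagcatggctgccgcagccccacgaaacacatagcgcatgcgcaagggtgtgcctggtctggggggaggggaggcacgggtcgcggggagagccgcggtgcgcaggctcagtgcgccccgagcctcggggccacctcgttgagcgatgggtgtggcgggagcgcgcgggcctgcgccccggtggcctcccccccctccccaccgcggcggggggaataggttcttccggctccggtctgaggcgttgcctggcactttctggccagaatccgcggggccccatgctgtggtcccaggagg
In H2-Eb1 an X box core began 89 bases and a Y box core 61 bases before the start, and in H2-DMb1 they lay at 92 and 63 bases. The H2-Aa window held the cyclic AMP response element 74 bases and the Y box core 50 bases before the start. No string was in either of the H2-DMa windows, of which the second starts at 34125268 and is not printed. These windows cover the listed starts only, and whether H2-DMa is transcribed from them in the brain was not examined. Their lack of strings therefore does not show that the gene lacks the boxes, and no link to its levels was tested. Of 32851 windows of the same length, 7.82% held the Y box core, 2.32% the X box core, 1.79% the cyclic AMP response element, and 61 windows (0.186%) held both box cores. These matches describe letters in a window and are not mapped binding sites.

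In the annotation of build GRCm39, to which the authors aligned, 5 of the members lie within the MHC on chromosome 17: H2-DMa (ENSMUSG00000037649.11) from 34338515 to 34358958 on the plus strand, H2-DMb1 (ENSMUSG00000079547.5) from 34372046 to 34379204 on the plus strand, H2-Ab1 (ENSMUSG00000073421.7) from 34476663 to 34488393 on the plus strand, H2-Aa (ENSMUSG00000036594.16) from 34493404 to 34506798 on the minus strand and H2-Eb1 (ENSMUSG00000060586.12) from 34504236 to 34535648 on the plus strand. Cd74 (ENSMUSG00000024610.16) runs on chromosome 18 from 60936899 to 60945731 on the plus strand, and Ciita (ENSMUSG00000022504.11) on chromosome 16 from 10297923 to 10347694 on the plus strand. H2-Aa and H2-Eb1 overlap each other on opposite strands, and 2.75% of the exonic bases of H2-Aa, 9.55% of those of H2-Eb1, 5.73% of Ciita, 11.8% of H2-DMa and 17% of H2-DMb1 are shared with a gene on the other strand. The kit marked strand, but how strand was used in the counting is not given in the sources used here, so reads from these stretches may be assigned to either gene. H2-DMb1 has a close copy, H2-DMb2, and reads that match both would not have been counted, which leaves its level uncertain.

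The libraries were set beside their labels first. Hbb-bs, an adult mouse beta-globin gene that the human genes replace, had 0 to 8 counts in all libraries but those of the AA mouse 9631, with 1944 in cortex and 1570 in hippocampus. Alas2, a heme synthesis enzyme of immature red cells, lay at medians of 4.81 CPM in AA and 96.8 CPM in SS cortex, with 95.9 CPM in the mouse 5844 and 51.9 CPM in the mouse 5853, both labelled AA, and 6.47 CPM in the mouse 7078, labelled SS. Prox1, a gene of dentate granule neurons, had 87.6 CPM in the library labelled cortex and 16 CPM in that labelled hippocampus of the AA + RSD mouse 9674, against 6.67 to 23.8 and 45.3 to 175 CPM in the other mice, so that each resembled the other tissue. Mouse 9877 (AA + RSD + minocycline) and mouse 9887 (SS + minocycline) had identical counts in each tissue and entered no comparison. The numbers that name the mice fall into 6 runs, which were joined into 3 series without a label that says what a run stands for, namely A (5349 to 5400 and 9615 to 9674), B (5645 to 5900 and 9810 to 9910) and C (7037 to 7121 and 10633 to 10639). All AA + RSD and SS + RSD mice were of series A whereas all mice given RSD and minocycline were of B or C. Each comparison was repeated with the series as a term and without each doubted mouse that its fit held.

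In untreated AA cortex the 4 genes H2-Aa, H2-Ab1, H2-Eb1 and Cd74 were low and H2-DMa was the most abundant member. Levels of different genes are compared per kilobase of merged exons, on which scale the AA cortex medians were 2.22 CPM per kilobase for H2-DMa, 1.08 for Cd74, 0.693 for H2-DMb1, 0.559 for H2-Eb1, 0.318 for H2-Ab1, 0.295 for H2-Aa and 0.00933 for Ciita. The ranges over mice of neighbours in this order overlapped, apart from Ciita, which lay below every other member in each AA mouse. In SS cortex Cd74 had 2.27 CPM per kilobase, close to the 2.53 of H2-DMa, and H2-Eb1 (1.08) and H2-Ab1 (0.848) stood above H2-DMb1 (0.745). Ciita stayed last in all of these groups, with 0.0228 CPM per kilobase in SS cortex and 0.0158 and 0.0278 in AA and SS hippocampus.

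H2-DMa differed between the tissues of untreated mice and the other 6 members were not called. Its median was 9.63 CPM (9.18 to 12) in AA cortex and 12.9 CPM (10.8 to 17.1) in AA hippocampus, and 11 CPM (8.96 to 12.5) and 14.9 CPM (12.3 to 17.7) in SS mice. The ranges of the tissues overlapped a little in both genotypes. The log2 fold change of hippocampus against cortex was 0.39 ± 0.06 (standard error, edgeR quasi-likelihood test, Benjamini-Hochberg adjusted p = 1.09e-06 over all genes). That is 1 of 7 members called, where 46.1% of 19255 genes tested were called at an adjusted p under 0.05. The other members had log2 fold changes of 0.10 (H2-DMb1) to 0.40 (H2-Eb1), with adjusted p of 0.15 to 0.751. This fit entered the tissues of a mouse as separate samples. With the mouse as a block H2-DMa had 0.41 ± 0.06 (edgeR adjusted p = 1.44e-06). Ctsb and Lgmn, lysosomal proteases, were lower in hippocampus and Ifi30, a lysosomal thiol reductase, was higher, with log2 fold changes of -0.34, -0.23 and 0.31.

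**Figure D1:**
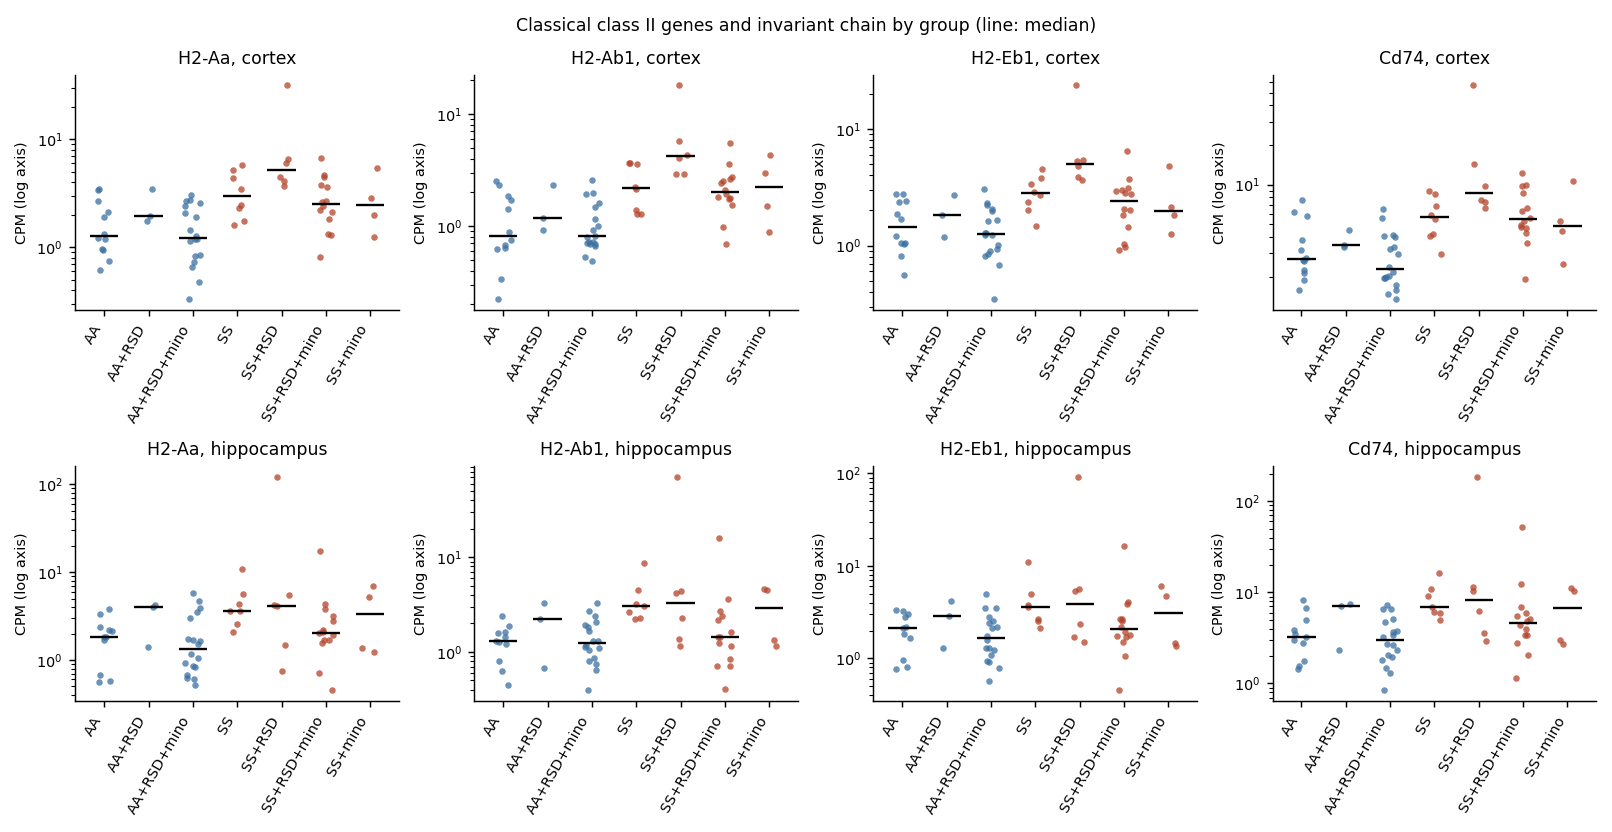
CPM on a log axis of H2-Aa, H2-Ab1, H2-Eb1 and Cd74 in each group, cortex and hippocampus. Points are libraries and lines are group medians. The hippocampus library of SS + RSD mouse 9615 has 123 CPM of H2-Aa and 187 CPM of Cd74, and the medians of the SS groups mostly lie above those of the AA groups.

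The genotype comparison in untreated mice asked what the sickle allele alone goes with. In the cortex all 8 SS mice lay above the AA median for H2-Aa, H2-Ab1, H2-Eb1, Cd74 and Ciita, and the distributions overlapped. H2-Aa had a median of 2.97 CPM (1.6 to 5.74) in SS and 1.27 CPM (0.612 to 3.45) in AA mice, and 4 of the 8 SS mice exceeded every AA mouse. H2-Ab1 had 2.18 CPM (1.29 to 3.67) in SS against 0.817 CPM (0.222 to 2.52) in AA mice. H2-Eb1 had 2.81 CPM (1.47 to 4.52) against 1.45 CPM (0.554 to 2.77). The SS medians of these chain genes lay near the highest AA mouse. Cd74 had 5.7 CPM (2.95 to 8.92) in SS and 2.72 CPM (1.59 to 7.71) in AA mice, with 2 SS mice above every AA mouse. Ciita had 0.252 CPM (0.121 to 0.742) against 0.103 CPM (0.025 to 0.377). The log2 fold changes of these 5 genes were 0.71 ± 0.34 (Cd74) to 1.17 ± 0.43 (Ciita), none of the 7 members passed the edgeR test over all genes (adjusted p = 0.601 to 0.966), and 5 of 7 had an unadjusted p under 0.05. In this contrast 0.214% of 22926 genes were called, and 1501 of them had an unadjusted p under 0.05. The DM genes had log2 fold changes of 0.05 ± 0.12 for H2-DMa and 0.09 ± 0.18 for H2-DMb1.

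In the hippocampus all 7 SS mice lay above the AA median for the same 4 genes. H2-Ab1 had a median of 3.03 CPM (2.2 to 8.62) in SS against 1.29 CPM (0.445 to 2.38) in AA mice, and 5 of 7 SS mice exceeded every AA mouse. H2-Aa had 3.65 CPM (2.11 to 10.9) against 1.82 CPM (0.557 to 3.82), and Cd74 had 6.87 CPM (4.97 to 16.3) against 3.26 CPM (1.44 to 8.23). The upper ends of the SS ranges of H2-Aa and H2-Ab1 came from mouse 5349. Those of the AA ranges of H2-Ab1 and Cd74 came from mouse 5844, whose Alas2 did not match its AA label. The next AA mice had 1.88 CPM of H2-Ab1, below the lowest SS mouse at 2.2 CPM, and 6.67 CPM of Cd74, within the SS range. Log2 fold changes were 1.09 ± 0.55 (H2-Eb1) to 1.52 ± 0.56 (H2-Ab1). No member was called by edgeR, H2-Ab1 having the lowest adjusted p of 0.878, and 0.159% of 23215 genes were called. An unadjusted p under 0.05 was found for 3 members and for 862 of all genes. Without mouse 5844 no member was called either, and the log2 fold change of Cd74 was 1.40.

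Taking the 3 conditions that both genotypes had (untreated, RSD, RSD with minocycline) with equal weight, a comparison chosen after the data had been seen, gave calls for the chain genes and Cd74. In the cortex H2-Aa, H2-Ab1, H2-Eb1 and Cd74 were higher in SS mice, with log2 fold changes of 1.27 ± 0.28 (adjusted p = 0.00627), 1.39 ± 0.27 (0.00128), 1.21 ± 0.25 (0.00236) and 1.33 ± 0.25 (0.000542). These are 4 of 7 members, where 1.03% of all genes were called. Ciita was at 1.04 ± 0.30 (0.0755), and H2-DMa and H2-DMb1 were at 0.08 ± 0.08 and 0.19 ± 0.12. In the hippocampus H2-Ab1 (1.71 ± 0.41, adjusted p = 0.0229) and Cd74 (1.73 ± 0.42, 0.0251) were called, 2 of 7 members against 0.594% of all genes, while H2-Eb1 (1.51 ± 0.39) and H2-Aa (1.64 ± 0.45) had adjusted p of 0.0507 and 0.066. Without the libraries of SS + RSD mouse 9615 the cortex log2 fold changes were 0.95 to 1.16 and all 4 calls were kept, whereas in the hippocampus they were 0.67 to 0.92 and no member was called (adjusted p = 0.306 to 0.702). The hippocampus calls were also lost without mouse 9674 and without mouse 9643. Over all libraries of a genotype, the medians in the cortex were 3.17 CPM of H2-Aa in SS and 1.38 CPM in AA mice, and 6.14 and 2.87 CPM of Cd74, and in the hippocampus 2.79 and 1.71 CPM of H2-Aa and 5.92 and 3.26 CPM of Cd74. Markers of several cell types moved with this contrast. Flt1, an endothelial VEGF receptor, had log2 fold changes of 0.38 (cortex) and 0.41 (hippocampus), and Pecam1 had 0.36 in the hippocampus. Of the B cell list 3 of 7 genes were higher in the cortex, among them Ms4a1 (1.53) and Cd79a (0.75). Ccr7, the sole gene of the dendritic cell list called, was higher in both tissues (1.10 and 2.20). Summed, that list had AA cortex medians of 25.8 CPM (untreated), 21.5 CPM (RSD) and 29.9 CPM (RSD with minocycline). The SS cortex medians were 28.6, 21.6 and 26 CPM in the same order. In the hippocampus they were 23, 20.4 and 22 CPM in AA and 25.6, 19.1 and 23.3 CPM in SS mice. Chil3 of the monocyte list was higher in the hippocampus (2.89). Folr1 of the choroid plexus list was lower in the cortex (-1.37). List medians in cortex and hippocampus were 1.04 and 0.75 for B cell, 0.86 and 1.05 for T cell, 1.01 and 1.49 for monocyte and 0.53 and 0.36 for border macrophage genes, against 0.01 and 0.00 over all genes. Their part in the class II difference was not tested.

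RSD in AA mice was examined with 3 mice only. In the cortex of mice 9643, 9646 and 9674, H2-Aa had 1.76, 1.96 and 3.46 CPM, and Cd74 had 3.45, 3.37 and 4.51 CPM. All 3 values of each gene lay above the AA medians of 1.27 and 2.72 CPM, and all but the 3.46 CPM of H2-Aa lay within the AA range. H2-DMb1 had 1.66, 1.37 and 2.04 CPM against an AA median of 1.16 CPM (0.628 to 1.58), a log2 fold change of 0.53 ± 0.24 that was not called (adjusted p = 0.319). In the hippocampus H2-Aa had 4.02, 4.2 and 1.39 CPM and Cd74 had 7.04, 7.46 and 2.3 CPM. Mouse 9674, with the tissue labels in doubt, was the lowest of the 3 in hippocampus and the highest in cortex. Without it, cortex log2 fold changes were 0.11 ± 0.63 for H2-Aa, -0.05 ± 0.52 for Cd74 and 0.35 ± 0.29 for H2-DMb1, hippocampus ones were 1.09 ± 0.69 for H2-Aa and 0.94 ± 0.56 for Cd74, and edgeR called no member in either tissue. The edgeR test called 0 of 7 members in either tissue (called were 0.853% of 21927 cortex genes and 1.19% of 21563 hippocampus genes). An unadjusted p under 0.05 was found for 1 member in each tissue, and for 3164 of the cortex and 3153 of the hippocampus genes. Ciita in the hippocampus, at 0.81, 0.155 and 0.198 CPM, had a log2 fold change of 1.27 ± 0.60 (adjusted p = 0.32), and the first of these mice alone lay above the AA range of 0.0799 to 0.232 CPM.

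RSD in SS mice gave the highest group medians of H2-Aa, H2-Ab1, H2-Eb1 and Cd74 in both tissues. In the hippocampus the means depended on 1 mouse, as did this order of medians for all of these genes but H2-Aa. Without mouse 9615 the hippocampus medians of H2-Ab1, H2-Eb1 and Cd74 were 2.28, 2.38 and 6.26 CPM, below the 3.03, 3.58 and 6.87 CPM of SS mice. That of H2-Aa was 4.13 CPM, against 3.65 CPM in SS and 4.02 CPM in AA + RSD mice. In the cortex of mice 5391, 5400, 9615, 9616, 9621 and 5354, H2-Aa had 3.68, 4.14, 31.6, 4.45, 5.99 and 6.6 CPM, against a median of 2.97 CPM in SS mice. H2-Ab1 had 2.94, 2.94, 18.1, 4.09, 4.27 and 5.73 CPM against a median of 2.18 CPM. All 6 mice lay above the SS median for both genes, and mouse 9615 stood far from the other 5. H2-Eb1 had 3.66, 3.87, 23.7, 5.37, 5.27 and 4.82 CPM against 2.81 CPM. Cd74 had 7.38, 6.66, 56.9, 7.65, 9.78 and 14.3 CPM against 5.7 CPM. Again all 6 mice were above the SS median, and 4 of 6 (H2-Eb1) and 3 of 6 (Cd74) exceeded every SS mouse. H2-DMb1 had 1.36, 1.73, 2.63, 2.56, 1.67 and 1.83 CPM against 1.25 CPM, with mice 9615 and 9616 together at the top. Ciita, at 0.167 to 0.525 CPM, and H2-DMa, at 9.02 to 11.9 CPM, lay wholly within the ranges of the SS mice. By edgeR's test H2-Eb1 rose by a log2 fold change of 1.54 ± 0.43 (adjusted p = 0.0475) and Cd74 by 1.66 ± 0.43 (0.0425), 2 of 7 members where 2.57% of 19906 genes were called. H2-Ab1 (1.51 ± 0.43), H2-Aa (1.59 ± 0.47) and H2-DMb1 (0.72 ± 0.23) had adjusted p of 0.0514, 0.0571 and 0.0687. Without mouse 9615 the 4 log2 fold changes were 0.62 to 0.79 (adjusted p = 0.235 to 0.374), and no gene of the whole table was called. No member was called either without mouse 5354, 5391, 9616 or 9621 in turn, and 4 were called without mouse 5400.

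In the hippocampus the 6 mice, in the same order, had 1.48, 0.745, 123, 4.13, 5.57 and 4.18 CPM of H2-Aa, and 3.61, 2.89, 187, 6.26, 10.4 and 11.4 CPM of Cd74. The SS medians were 3.65 and 6.87 CPM, so that mice 5391 and 5400 lay below every SS mouse, mouse 9615 lay above every SS mouse and the other 3 lay among them. H2-Ab1 (1.38, 1.15, 71.1, 2.28, 4.23 and 4.42 CPM) and H2-Eb1 (1.7, 1.49, 92.7, 2.38, 5.64 and 5.34 CPM) had the same arrangement. H2-DMb1 had 1.1, 1.55, 6.38, 1.8, 1.88 and 1.15 CPM and Ciita 0.189, 0.155, 2.36, 0.194, 0.47 and 0.478 CPM, and mouse 9615 was again far above the others, whereas H2-DMa, at 11.9 to 20.2 CPM, was not spread this way. The mean of H2-Aa was 23.2 ± 49 CPM (SD, n = 6), and 3.22 ± 2.03 CPM in the 5 mice without 9615. Log2 fold changes were 2.0 ± 0.82 (H2-Ab1) to 2.41 ± 0.86 (H2-Aa). EdgeR called 0 of 7 members (adjusted p = 0.103 to 0.876) and 3.11% of 20701 genes. An unadjusted p under 0.05 was found for 5 members and for 4050 of all genes. Without mouse 9615 the sign of the 4 genes turned, to log2 fold changes of -0.49 to -0.25 (adjusted p = 0.719 to 0.864).

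**Figure D2:**
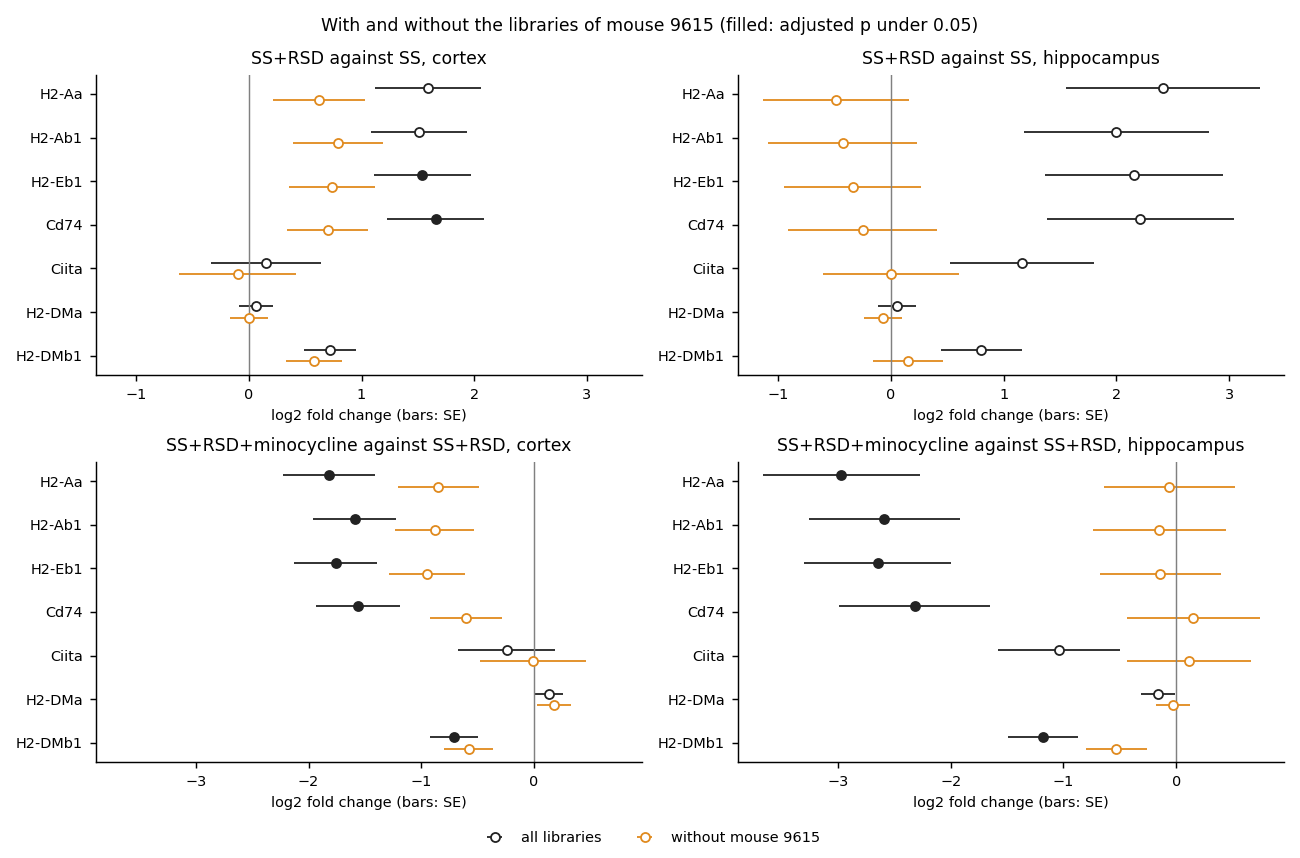
Log2 fold change with standard error of each member in SS + RSD against SS and in SS + RSD + minocycline against SS + RSD, with all mice and without mouse 9615, by tissue. In the hippocampus H2-Aa goes from 2.41 to -0.49 in the RSD comparison and from -2.97 to -0.06 in the minocycline comparison.

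SS + RSD and AA + RSD mice were also set side by side. In the cortex all 6 SS + RSD mice lay above all 3 AA + RSD mice for H2-Aa, H2-Ab1, H2-Eb1 and Cd74. The 4 genes followed each other closely over libraries, so these are not 4 independent observations. The share of all genes separated in this way was not counted. The log2 fold changes of these 4 genes were 1.98 ± 0.66, 2.11 ± 0.64, 2.03 ± 0.59 and 2.19 ± 0.58. EdgeR called 0 of 7 members (adjusted p = 0.0695 for Cd74) and 0.493% of genes. An unadjusted p under 0.05 was found for 4 members and for 1111 of all genes. DESeq2's Wald test called 2. In the hippocampus the log2 fold changes of the 4 genes were 2.78 ± 0.94 to 2.92 ± 1.06, with edgeR adjusted p of 0.169 to 0.232. There 0 of 7 members were called against 0.78% of genes. An unadjusted p under 0.05 was found for 4 members and for 2089 of all genes. Without mouse 9615 the 4 genes were at 1.05 to 1.43 in the cortex and at 0.03 to 0.44 in the hippocampus. The interaction, which asks whether RSD moved SS mice more than AA mice, called 0 of 7 members in either tissue by edgeR's test (0.236% of cortex and 0.0474% of hippocampus genes were called). The highest estimate in the cortex was 1.48 ± 0.65 for Cd74, the sole member there with an unadjusted p under 0.05 (0.0258), and in the hippocampus no member had one. Without mouse 9615 the interaction of the 4 genes was 0.12 to 0.59 in the cortex and -1.27 to -0.81 in the hippocampus.

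Minocycline during RSD in SS mice was the comparison with the most calls. In the cortex of the 14 SS + RSD + minocycline mice H2-Aa had a median of 2.53 CPM (0.808 to 6.73), H2-Ab1 2.03 CPM (0.696 to 5.53), H2-Eb1 2.41 CPM (0.919 to 6.52) and Cd74 5.46 CPM (1.91 to 12.2). The SS + RSD medians of these genes were 5.22, 4.18, 5.04 and 8.71 CPM. Between 10 and 12 of the 14 mice lay below every SS + RSD mouse, so the groups overlapped in few mice. Log2 fold changes were -1.82 ± 0.41 for H2-Aa (adjusted p = 0.0109), -1.59 ± 0.37 for H2-Ab1 (0.0119), -1.76 ± 0.37 for H2-Eb1 (0.00937) and -1.56 ± 0.37 for Cd74 (0.0121). H2-DMb1, at a median of 1.23 CPM (0.91 to 1.98), was lower too, with a log2 fold change of -0.71 ± 0.21 (0.0297). These are 5 of 7 members called lower, where 8.85% of 19906 genes were called. Ciita (-0.24 ± 0.43) and H2-DMa (0.13 ± 0.13) were not called. Without mouse 9615 the 4 log2 fold changes were -0.95 to -0.60, that of H2-DMb1 was -0.58 ± 0.22, and no member was called (adjusted p = 0.0904 to 0.284 for these 5 genes).

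In the hippocampus of the treated mice H2-Aa had a median of 2.04 CPM (0.45 to 17.5) and Cd74 4.6 CPM (1.14 to 52.5). The upper end came from mouse 9894, and 12 of 14 treated mice lay below the SS + RSD medians of 4.15 and 8.32 CPM. H2-Ab1 had 1.45 CPM (0.407 to 15.9) and H2-Eb1 2.06 CPM (0.45 to 16.6), while only 2 to 4 of the 14 mice lay below every SS + RSD mouse for any of the 4 genes, so that the groups overlapped widely. Log2 fold changes were -2.97 ± 0.70 (adjusted p = 0.0256), -2.59 ± 0.67 (0.0294), -2.65 ± 0.65 (0.0268) and -2.32 ± 0.67 (0.0414) for H2-Aa, H2-Ab1, H2-Eb1 and Cd74. H2-DMb1 had 0.997 CPM (0.621 to 1.86) against 1.67 CPM in SS + RSD mice, a log2 fold change of -1.18 ± 0.31 (0.0298), and 10 of 14 treated mice were below every SS + RSD mouse. Thus 5 of 7 members were called lower, where 5.96% of 20701 genes were called, and Ciita (-1.04 ± 0.54) and H2-DMa (-0.16 ± 0.15) were not. Leaving out mouse 9615 gave -0.15 to 0.15 for the 4 genes (adjusted p = 0.901 to 0.966) and no call. Leaving out mouse 9894 instead, a choice made after seeing the data, gave -3.51 to -3.05 and the same number of calls, and leaving out both mice gave -0.82 to -0.59 with none (adjusted p = 0.251 to 0.464 for the 4 genes). No member was called when mouse 5354 or mouse 5391 was left out, and 3 were without mouse 9616.

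**Figure D3:**
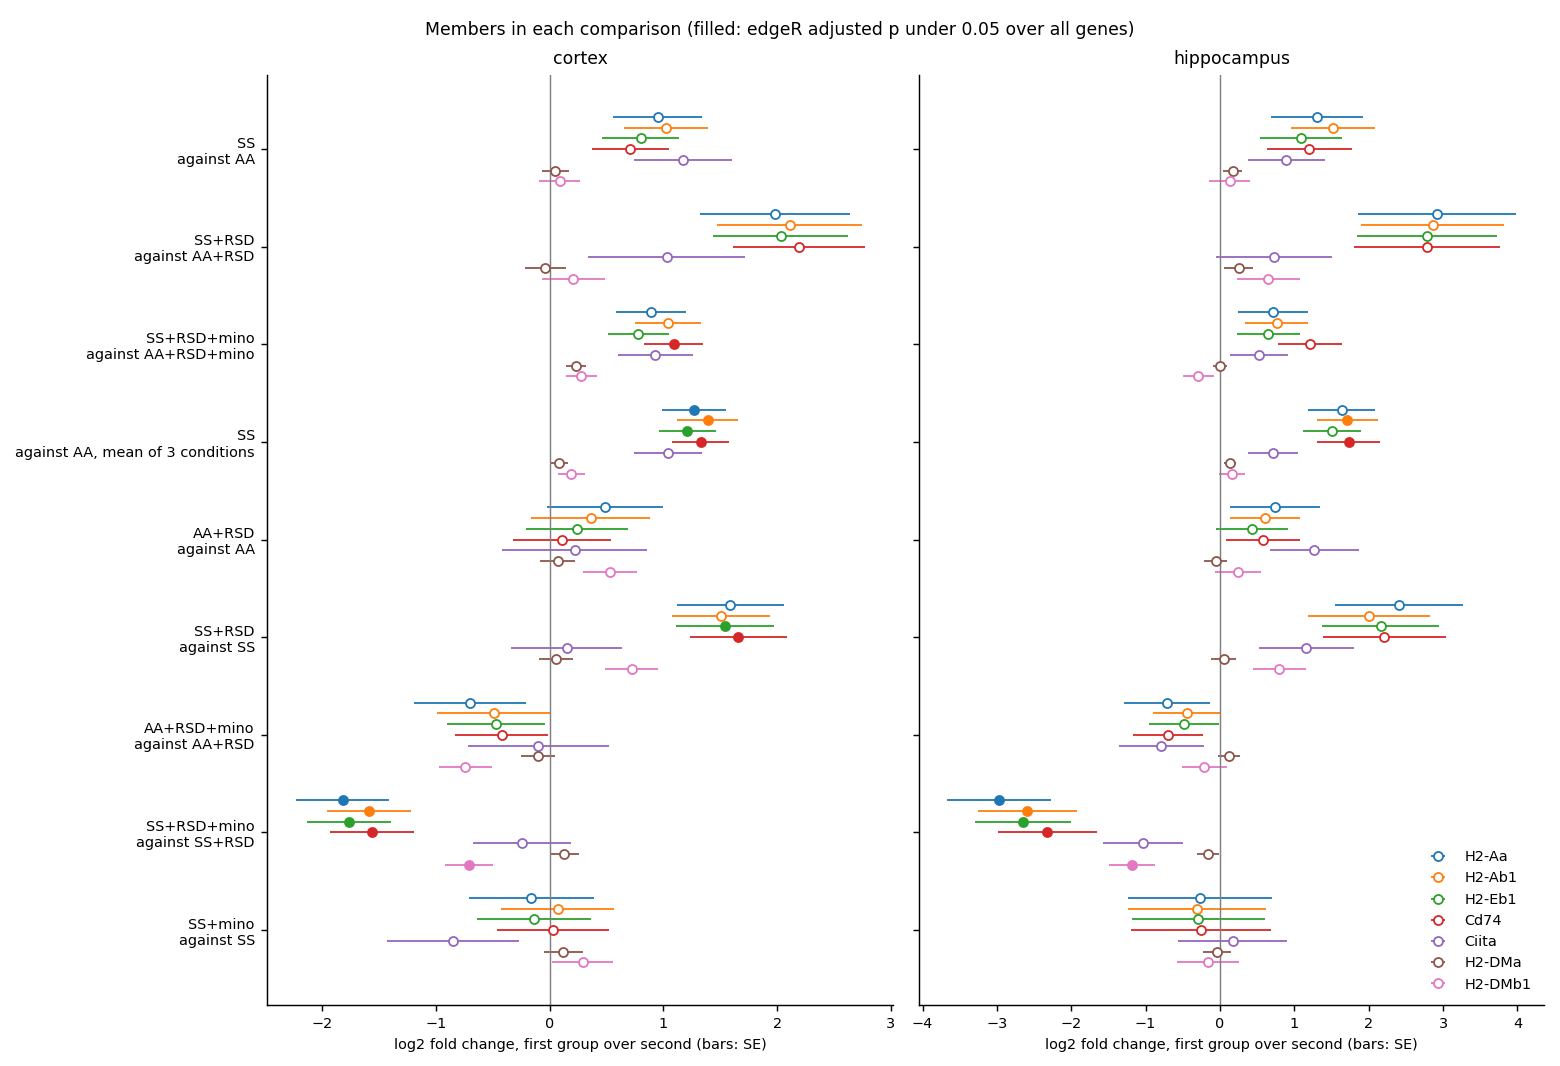
Log2 fold change with standard error of each member in each comparison, by tissue, filled where the adjusted p was under 0.05. The filled points lie in SS + RSD + minocycline against SS + RSD, where 5 members were lower in each tissue, in the genotype comparison over 3 conditions, and in a few others.

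No SS + RSD mouse shared a number series with an SS + RSD + minocycline mouse, so within a series this comparison had no value, and in a direct reading series and treatment cannot be told apart. With the series as a term, estimated through the untreated mice of both series, the cortex log2 fold changes of the 4 genes were -1.11 to -0.50 and no gene of the table was called, and in the hippocampus they were -1.55 to -1.20. For SS + RSD against SS, with mice of series A only, they were 0.82 to 1.15 in the cortex and 1.33 to 1.72 in the hippocampus, with no call. The genotype comparison over 3 conditions kept its cortex estimates with the series as a term, at 1.20 to 1.37 (adjusted p = 0.000552 to 0.0041). Among untreated mice the cortex genotype difference was 1.10 to 1.50 within series A (2 SS and 4 AA mice) and 0.47 to 0.76 within series B (6 SS and 8 AA mice). In the hippocampus it was 2.12 to 2.35 within series A (2 SS and 3 AA mice) and 0.50 to 1.05 within series B (5 SS and 8 AA mice).

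Minocycline alone in SS mice was compared with 4 mice. In the cortex H2-Aa had a median of 2.44 CPM (1.25 to 5.44) against 2.97 CPM in SS mice and Cd74 had 4.86 CPM (2.49 to 10.7) against 5.7 CPM. Both ranges overlapped those of the SS mice almost wholly. The log2 fold changes of the 4 genes were -0.16 to 0.07 in the cortex and -0.31 to -0.26 in the hippocampus, edgeR called 0 of 7 members in either tissue and 0% of all genes, no member had an unadjusted p under 0.05 while 1406 cortex genes and 449 hippocampus genes had one. The sign depended on the number series: with the series as a term the 4 genes were at 0.26 to 0.66 in the cortex and 0.63 to 0.79 in the hippocampus, and among mice of series B alone, with 2 treated mice, at 0.55 to 1.02 (adjusted p = 0.0517 to 0.286) and 0.70 to 0.96 (0.0591 to 0.1). H2-DMb1 was called higher in the cortex within series B (0.97 ± 0.24, edgeR adjusted p = 0.00864), against 0.29 ± 0.27 over all mice. In AA mice given RSD, minocycline gave log2 fold changes of -0.70 to -0.42 for the 4 genes in the cortex and of -0.71 to -0.45 in the hippocampus. The edgeR test called 0 of 7 members (called were 3.6% of cortex and 2.67% of hippocampus genes). In the hippocampus 0 members had an unadjusted p under 0.05, against 4178 of all genes. In the cortex 1 member had one, against 5325 of all genes. That member was H2-DMb1, at -0.74 ± 0.23 (adjusted p = 0.0568), and DESeq2 called 1 member there.

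Between the genotypes under RSD and minocycline, Cd74 in the cortex was higher in SS mice, with a median of 5.46 CPM against 2.28 CPM (1.35 to 6.52) in 18 AA + RSD + minocycline mice. Of the 14 SS mice, 13 lay above the AA median, and the ranges overlapped. The log2 fold change was 1.09 ± 0.26 (adjusted p = 0.0257), the sole member called of 7, where 0.624% of genes were called. H2-Ab1 had 1.04 ± 0.29 (0.0929), H2-Aa 0.89 ± 0.31 (0.268) and H2-Eb1 0.78 ± 0.27 (0.272). The call of Cd74 was lost when the identical libraries 9877 and 9887 were kept under their labels. In the hippocampus edgeR called 0 of 7 members against 2.74% of genes, and Cd74 had 1.21 ± 0.43 (adjusted p = 0.167). An unadjusted p under 0.05 was found for 1 member and for 1935 of all genes. The 4 genes were at 0.65 to 1.21 there, and at 0.08 to 0.47 without mouse 9894.

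**Figure D4:**
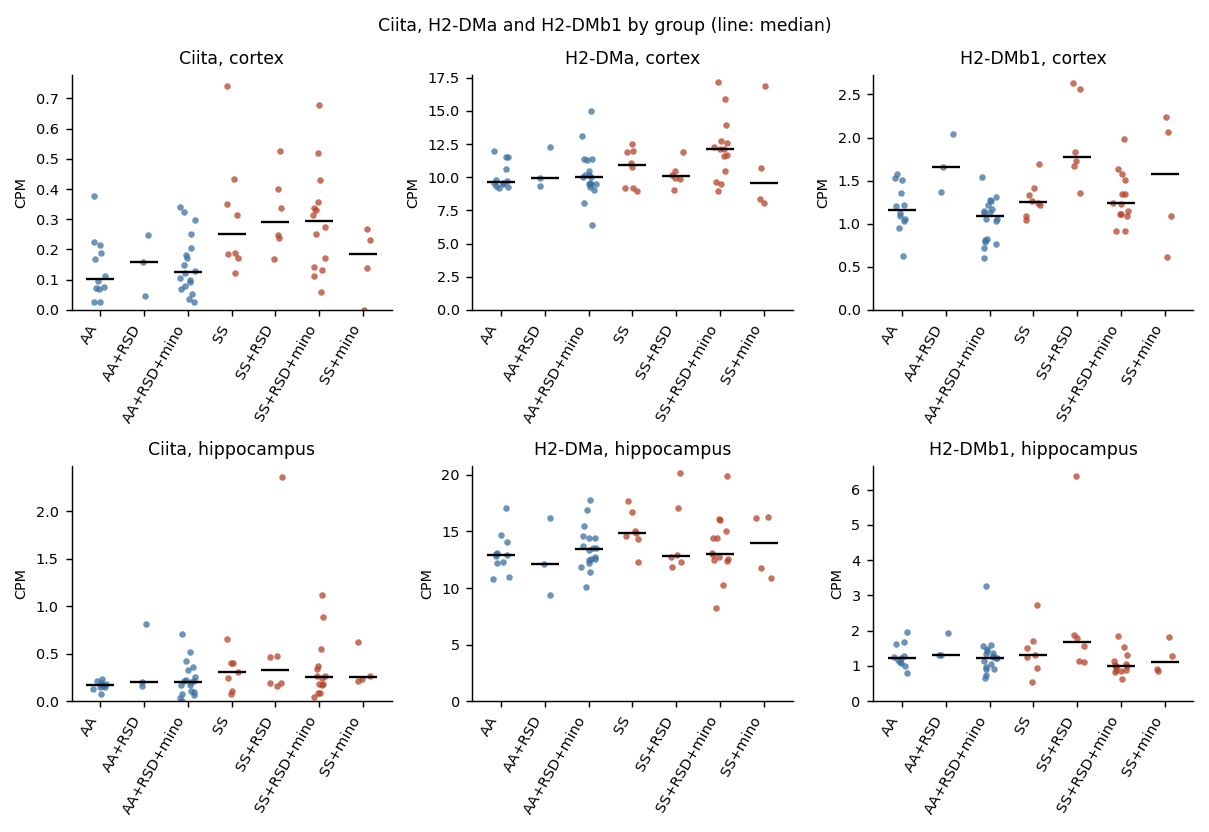
CPM on a linear axis of Ciita, H2-DMa and H2-DMb1 in each group, cortex and hippocampus, points being libraries and lines group medians. H2-DMa stays between 6.37 and 20.2 CPM, whereas H2-DMb1 reaches 6.38 CPM and Ciita 2.36 CPM in the hippocampus of mouse 9615.

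The members did not vary to the same extent. Over 64 hippocampus libraries the highest level was 273 times the lowest for H2-Aa, 223 times for Cd74, 206 times for H2-Eb1 and 181 times for H2-Ab1, but 11.9 times for H2-DMb1 and 2.46 times for H2-DMa. The highest library was that of mouse 9615, and without it the ratios were 38.9, 62.8, 36.9, 40.6, 6.11 and 2.43 in the same order of genes, the highest of the 4 genes then coming from mouse 9894. The chain genes and Cd74 kept close to each other, with pairwise Spearman's rho of log2 CPM of 0.91 to 0.96 over libraries. The same 4 genes had rho of 0.52 to 0.66 with Ciita, 0.46 to 0.71 with H2-DMb1 and 0.23 to 0.42 with H2-DMa, a description over libraries that share group, series and depth differences. Cd74 made up a median of 42% of the cortex and 40.9% of the hippocampus summed CPM of the 4 genes, and H2-Aa 21.4% and 20.6%.

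Single libraries were named where the summed CPM of H2-Aa, H2-Ab1, H2-Eb1 and Cd74 was over 3 times the median of its group or more than 3 times below it, a description with no test. Of 128 libraries, 7 from 6 mice were named, 3 of them high and 4 low. The highest was the hippocampus of SS + RSD mouse 9615, with 473 CPM for the sum and 23.4 times the group median, and its cortex had 130 CPM and 5.56 times the median. The hippocampus of SS + RSD + minocycline mouse 9894 had 103 CPM and 9.89 times the median, while its cortex, at 19.1 CPM, was 1.45 times the median. The low libraries were the cortex of mouse 9810 (4.34 CPM, 0.328 of the median) and the hippocampus of mice 7078 (2.44 CPM, 0.236), 5400 (6.27 CPM, 0.31) and 7037 (2.33 CPM, 0.319). Just inside the limit were the hippocampus of mice 5646 (2.83), 5349 (2.62) and 9851 (2.5) on the high side and of 9674 (0.351), 7121 (0.401) and 5391 (0.404) on the low side. The mice 7078 and 9674 are among those whose labels were doubted.

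The hippocampus of mouse 9615 rested on 5633 counts of H2-Aa, 3253 of H2-Ab1, 4246 of H2-Eb1 and 8543 of Cd74. Relative to the median of the other 5 SS + RSD mice these were 29.8, 31.1, 39 and 29.8 times, and Ciita was 12.1 times, H2-DMb1 4.11 times and H2-DMa 1.59 times. The 4 genes were therefore high together, and the transactivator and the DM beta chain were high to a lesser extent. H2-Oa and H2-Ob, chains of the DM-modulating H2-O molecule, had 6.05 CPM and 2.53 CPM against 0.319 to 0.738 and 0.378 to 0.717 CPM in the other mice. The I-E alpha chain gene H2-Ea had 0 counts in mouse 9615 and in the other SS + RSD mice, in both tissues. Ctss, the protease that trims the invariant chain, had 201 CPM against 52.1 to 74.1 CPM, and the interferon-regulated gene Irf1 had 16.2 CPM against 7.09 to 9.46 CPM. Ifng itself had 2 counts. Rfx5, a subunit of the complex on the X box, had 19.9 CPM against 16.3 to 19.7 CPM.

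Markers of other cell types in the same library were high for several types. Of T cell genes, Cd8a had 2.27 CPM against 0.062 to 0.235 CPM and Cd3d 1.16 CPM against 0.0486 to 0.134 CPM. Of dendritic cell genes, Itgax had 3.36 CPM against 0.478 to 0.872 CPM, Clec9a 0.306 CPM (14 counts) against 0 to 0.0336 CPM, and Xcr1 0.175 CPM (8 counts) against 0 in each of the others, whereas the remaining 5 of the 8, Flt3, Zbtb46, Cd209a, Clec10a and Ccr7, lay within the other mice and the sum of the list was 19.7 CPM against 15.2 to 19.4 CPM. The T cell sum was 8.13 CPM against 1.1 to 2.15 CPM. Of monocyte genes Ly6c2, Ccr2 and Plac8 lay above the other mice, at 0.59, 0.983 and 0.677 CPM, and Chil3 within them. The light chain gene Igkc had 9.31 CPM against 0.279 to 3.99 CPM, but the B cell gene Cd79a (0.349 CPM) lay within the other mice. So did 3 genes of the border macrophage list, Mrc1 (5.24 CPM), Pf4 (0.393 CPM) and F13a1 (4.06 CPM). The rest of that list is not given for this library, so these genes do not place mouse 9615 for the list as a whole. The sum of that list was 7.79 to 20.6 CPM over the 6 SS + RSD hippocampus libraries, mouse 9615 included. The rho of this sum with the summed class II level was 0.96 over 14 hippocampus libraries of series A, which hold mouse 9615. It was 0.53 over 42 of series B. The microglial gene Tmem119 had 39 CPM against 28.8 to 33.9 CPM. The sum of the choroid plexus markers, 7 genes led by Ttr, was 9310 CPM in mouse 9615, 2960 CPM in mouse 9616 and 37.8 to 45.8 CPM in the other 4, and mouse 9616 had 15.1 CPM for the sum of the 4 class II genes. Elsewhere in the hippocampus, mouse 5646 had 9700 CPM of the choroid plexus markers and 20.7 CPM of class II, mouse 9839 had 4430 and 11.7 CPM, mouse 5349 had 2420 and 46.7 CPM, and mouse 9894 had 2260 and 103 CPM. In the cortex of mouse 9615 Ttr had 11.5 CPM and Cd8a 0.236 CPM, close to or within the other mice, while H2-Aa and Cd74 were 7.09 and 7.44 times the median of the others. The part of these cell types in the level of mouse 9615 was not tested.

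The same mouse often stood high in both tissues. Over 64 mice with both libraries the summed level was higher in the hippocampus in 35 and in the cortex in 29, and over 3-fold apart in 7. Pearson's r of log2 CPM between tissues was 0.62 for H2-Aa (Spearman's rho 0.47), 0.58 for Cd74 (0.42), 0.53 for H2-Ab1 (0.42) and 0.51 for H2-Eb1 (0.35), with adjusted p of 3.5e-05, 4.7e-05, 3.5e-05 and 0.00017 by a two-sided permutation test with 100000 resamples over 7 members. Ciita had 0.31 (0.30, adjusted p = 0.016), H2-DMb1 0.42 (0.42, 0.00073) and H2-DMa 0.01 (-0.06, 0.92). Without the 2 mice farthest from the cortex median the 4 genes had r of 0.30 (H2-Eb1) to 0.46 (H2-Aa), Ciita 0.38, H2-DMb1 0.29 and H2-DMa -0.02. Within number series A (14 mice), which holds mouse 9615, r of the 4 genes was 0.70 to 0.83, rho was 0.46 to 0.68, and r without the 2 farthest mice was 0.31 to 0.55, and within series B (42 mice) 0.37 to 0.54. With the group means taken off, it was 0.36 to 0.52.

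**Figure D5:**
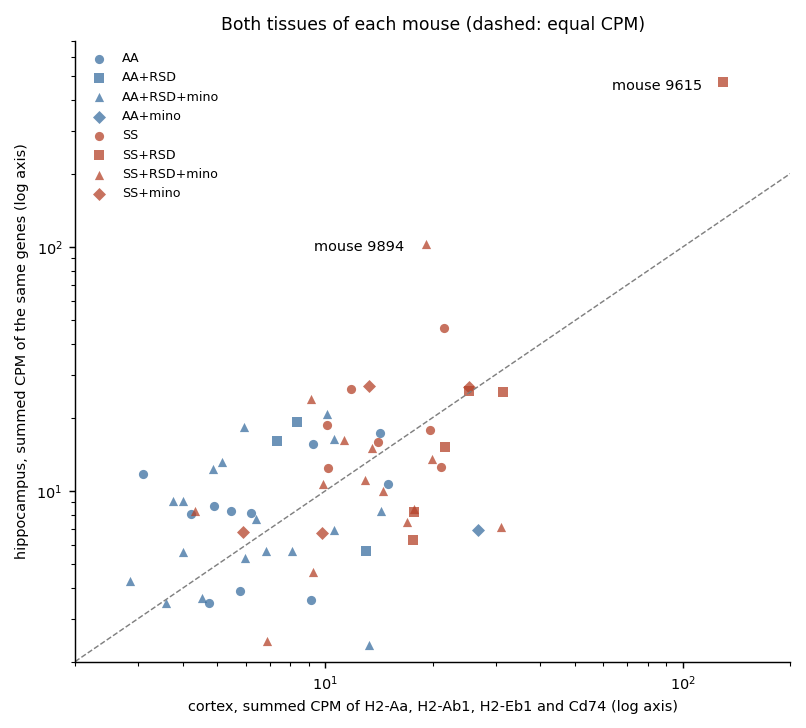
Summed CPM of H2-Aa, H2-Ab1, H2-Eb1 and Cd74 in the hippocampus against the cortex of the same mouse, log axes, with the dashed line at equal levels. Mouse 9615 is far up in both tissues (130 and 473 CPM), mouse 9894 in the hippocampus only (19.1 and 103 CPM).

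Other genes of the pathway are read beside the share of all genes called. In SS + RSD against SS that share was 2.57% in the cortex and 3.11% in the hippocampus. In SS + RSD + minocycline against SS + RSD it was 8.85% and 5.96%. With lists this short, few or no calls do not set the pathway apart from other genes. No gene of the 5 further class II and editor genes (3 tested), the 6 lysosomal processing genes, the 7 class II transcription factors, the 7 interferon gamma pathway genes (6 tested) or the 5 turnover and costimulation genes was called by edgeR in SS + RSD against SS in either tissue. List medians were 0.10 to 0.38 in the cortex and 0.10 to 0.37 in the hippocampus, against 0.08 and 0.06 over all genes and 1.51 and 2.0 for the 7 members. In SS + RSD + minocycline against SS + RSD the members had medians of -1.56 (cortex) and -2.32 (hippocampus), against -0.05 and -0.03 over all genes. H2-Oa was lower in the hippocampus (-1.57 ± 0.45, adjusted p = 0.0382), and in the cortex Rfx5 was higher (0.52 ± 0.13, 0.0152) and the cytokine receptor kinase Jak1 was lower (-0.26). The class II transcription factors as a list had medians of -0.03 and -0.05.

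Among cell type markers, the border macrophage list had medians of 0.49 (cortex) and 0.02 (hippocampus) in SS + RSD against SS, and of -0.60 and -0.56 in SS + RSD + minocycline against SS + RSD, with 1 of its 8 genes called, F13a1 in the hippocampus under minocycline (-1.07 ± 0.26, adjusted p = 0.026). Its summed level was 5.57 to 13.7 CPM in AA, 5.58 to 14.7 CPM in SS, 10.5 to 22.3 CPM in SS + RSD and 4.85 to 17.2 CPM in SS + RSD + minocycline cortex. The endothelial list summed to 179 to 316, 279 to 346, 284 to 364 and 198 to 321 CPM in the same groups, and Pecam1 was lower under minocycline in both tissues (-0.63 and -0.51). The microglial genes Tmem119 in the cortex (-0.50) and Cx3cr1 in the hippocampus (-0.38) were lower in that comparison, as were Col1a2 of the meningeal fibroblast list in the cortex (-0.70) and Prlr and Kl of the choroid plexus list in the hippocampus (-1.77 and -1.34), where that list's median was -2.09. Dendritic cell, B cell, T cell and monocyte lists had no call in these comparisons, and their sums overlapped between the SS groups. Of all genes 2.57% to 8.85% were called in them, so few or no calls in lists this short do not set these markers apart. Over all libraries the summed class II level had rho of 0.65 (cortex) and 0.70 (hippocampus) with the border macrophage sum, 0.67 and 0.63 with the endothelial sum, 0.67 and 0.52 with the monocyte sum, 0.56 and 0.57 with the meningeal fibroblast sum, 0.52 and 0.65 with the T cell sum, 0.49 and 0.32 with the microglial sum, 0.08 and 0.33 with the choroid plexus sum, 0.03 and 0.22 with the B cell sum and -0.45 and -0.04 with the dendritic cell sum. The part of these cells in the class II differences was not tested.

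The genes whose levels followed the 4 class II genes most closely, by the mean over tissues of Spearman's rho among 21923 genes, were Mgp (0.71), Gstm2 (0.70), Stom, Serping1, Mrc1, Smad6, Clec14a, Isg15, Angpt2 and Igkc (0.68). Mgp had rho of 0.76 (cortex) and 0.67 (hippocampus), Mrc1 0.65 and 0.74, Isg15 0.77 and 0.60 and Igkc 0.80 and 0.56, over 66 and 64 libraries, where the median over all genes was -0.04 and -0.01. Mrc1 encodes the mannose receptor of border macrophages, Isg15 an interferon-induced ubiquitin-like protein, and Igkc the immunoglobulin kappa constant region. Of the remaining members H2-DMb1 ranked 64, Ciita 85 and H2-DMa 2069 on the same scale.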

How the data were processed

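Per the labels, single-end strand-specific polyadenylated RNA libraries of individual mice were aligned by the authors with STAR to GRCm39 and counted per GENCODE gene. The deposited values are raw read counts, with rows for unmapped (median 12.4% of reads in the cortex and 13.3% in the hippocampus), multimapping (4.98% and 4.83%), ambiguous (1.25% and 1.22%) and unannotated (8.25% and 7.59%) reads, which were kept out of library sizes. The STAR version, the GENCODE release and the strand setting are not given in the sources used here. Groups came from the labels, and 3 columns of the tables were not used, of which 1 was labelled with both tissues.

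From the counts, CPM was computed against reads on genes. Tests were edgeR 4.0.16 quasi-likelihood tests (R 4.3.3, TMM, filterByExpr with a minimum count of 10 and a total of 15, Benjamini-Hochberg over all genes, called under 0.05), with 1 model per genotype and tissue for comparisons within a genotype and 1 per tissue for those across genotypes. All 7 members passed the filter in every model. Calls for members are read beside the share of all genes called. Tissues were compared with genotype as covariate, and the fit with the mouse as a block is an alternative, since each mouse gave both tissues. P-values measure the spread between mice, except in the main tissue comparison, which entered both libraries of a mouse as separate samples. On counts simulated from SS and AA cortex (8 against 12 mice, 17512 genes), edgeR found 85% of 200 changed genes with 9 false calls. With SS + RSD and SS hippocampus (6 against 7 mice) it found 72%, with 3 false calls. With AA + RSD and AA cortex (3 against 12 mice) it found 66.5%, with 4 false calls. The simulated counts held no number series and no mouse far from its group. These figures therefore do not carry over to comparisons that follow the series or depend on mouse 9615. DESeq2 1.42.0 was an alternative, besides RLE size factors, no filter, the groups compared only, the number series or the share of reads outside genes as a term, and leaving out mice.

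The members and gene lists were chosen with earlier results of these data known. Members were described in every comparison, and other genes only from the lists of class II presentation and cell type markers, by counts and medians. Libraries were named singly where the sum of H2-Aa, H2-Ab1, H2-Eb1 and Cd74 was over 3 times its group median or more than 3 times below it, in groups of at least 3. Correlations used log2 CPM with a prior count of 2. Promoter sequences are from RefSeq.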

Additional observations from a re-analysis of the deposited data

Results flagged for a closer look

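In groups of 4 to 10 mice, 14 of 42 pairs of a member and a group had 1 library whose gap to the next was over Dixon's limit. This is a description and no test: mouse 9615 (SS + RSD), already named for its summed level of 4 of these genes, accounts for 10 of the 14, and the members of 1 library are not independent. The limit is passed by chance in about 1 in 20 groups of normally distributed values. CPM of these genes was skewed upward, so the 14 of 42 cannot be set against that rate. Its cortex had 31.6 CPM of H2-Aa, 18.1 CPM of H2-Ab1, 23.7 CPM of H2-Eb1 and 56.9 CPM of Cd74. Its hippocampus had 123, 71.1, 92.7 and 187 CPM of the same genes, 2.36 CPM of Ciita and 6.38 CPM of H2-DMb1. Among SS mice, the hippocampus of mouse 5349 had 10.9 CPM of H2-Aa, 8.62 CPM of H2-Ab1 and 10.9 CPM of H2-Eb1, against 2.11 to 5.64, 2.2 to 4.55 and 2.15 to 5.02 CPM in the other 6. The hippocampus of SS + minocycline mouse 9888 had 0.626 CPM of Ciita against 0.211 to 0.269 CPM.

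Libraries that entered no comparison also lay above every AA mouse. The single AA mouse on minocycline alone, 10639, had in its cortex 6.27 CPM of H2-Aa (highest AA 3.45), 3.93 CPM of H2-Ab1 (2.52), 5.98 CPM of H2-Eb1 (2.77), 10.5 CPM of Cd74 (7.71), 0.553 CPM of Ciita (0.377) and 2.07 CPM of H2-DMb1 (1.58), with 26.7 CPM for the sum of the first 4 (15). In its hippocampus Ciita had 0.26 CPM (0.232), and the sum of the 4 genes was 6.92 CPM, within the AA mice. The library deposited for both mouse 9877 and mouse 9887 had 1.71 CPM of H2-DMb1 in the cortex (1.58). In the hippocampus it had 12 CPM of H2-Aa (3.82), 6.43 CPM of H2-Ab1 (2.38), 10.7 CPM of H2-Eb1 (3.34), 24.7 CPM of Cd74 (8.23), 0.515 CPM of Ciita (0.232) and 2.94 CPM of H2-DMb1 (1.96), with 53.9 CPM for the sum of the 4 genes (17.3). Its choroid plexus markers summed to 9370 CPM there. No interaction test of a member passed the threshold.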

How the results depend on the processing

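Of 2451 log2 fold changes of members under 31 alternative settings, 2180 kept their direction and their side of the threshold, 101 lost a call, 40 gained one and 130 changed sign. Of the last, 1 had been called, Cd74 under minocycline in the hippocampus of SS + RSD mice. The cause of these differences was not tested. No group median moved by over 1 SD on TMM library sizes. With the mouse as a replicate block, hippocampus against cortex again called 1 member, H2-DMa (0.41 ± 0.06), and the block changed no other call. The main counts that moved are given next as members called.

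In SS + RSD against SS in the cortex (2 members), DESeq2 called 4, the groups compared only 5, the fit without mouse 7078 1, and no filter, the number series, series A only, the share of reads outside genes and leaving out far libraries each 0. Leaving out each SS + RSD mouse gave 0 to 4. In SS + RSD + minocycline against SS + RSD (5 members in each tissue), the number series, the share outside genes and leaving out far libraries each gave 0 in both tissues, as did leaving out both 9615 and 9894 in the hippocampus, where no filter gave 2 and DESeq2 called 1 and gave no adjusted p for 4 members. Leaving out each SS + RSD mouse gave 0 to 5 in both tissues. In SS + RSD against AA + RSD (0 members), DESeq2 called 2 in each tissue, the share outside genes 3 in the cortex, and leaving out single mice 0 to 1 there. Under RSD with minocycline the genotype comparison in the cortex (1 member) had 2 with DESeq2, the share outside genes or without far libraries, and 0 with the identical libraries kept. Over the mean of 3 conditions (2 members in the hippocampus), DESeq2 and the share outside genes gave 4, the identical libraries kept 1, and leaving out far libraries, mouse 9674, or both 9615 and 9894 gave 0. Leaving out single mice gave 0 to 4 there, and always 4 in the cortex. DESeq2 called 1 in the cortex for minocycline in AA + RSD mice, series B only called 1 for minocycline alone in SS cortex, and leaving out far libraries called 1 for SS against AA in the hippocampus.

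Sign changes are listed as log2 fold changes, by setting. Without far libraries, SS + RSD against SS gave -0.24 (H2-Aa), -0.25 (H2-Ab1), -0.17 (H2-Eb1), -0.06 (Cd74) and -0.20 (H2-DMa) in the hippocampus and -0.10 (Ciita) in the cortex. The hippocampus interaction gave -1.02, -0.89, -0.63, -0.68 and -0.17 for the same genes and -0.15 for H2-DMb1, and SS + RSD against AA + RSD gave -0.25 (Ciita) and -0.02 (H2-DMb1). Under minocycline in SS + RSD mice H2-DMa had 0.09 in the hippocampus and Ciita 0.07 in the cortex, and H2-DMb1 over 3 conditions had -0.07, also without both 9615 and 9894. For minocycline alone, the number series gave 0.60 (H2-Aa) and 0.26 (H2-Eb1) in cortex, and for H2-Aa, H2-Ab1, H2-Eb1, Cd74, H2-DMa and H2-DMb1 in hippocampus 0.79, 0.63, 0.79, 0.69, 0.16 and 0.42. Series B only gave 0.80 and 0.55 in cortex, and for the same 6 genes in hippocampus 0.96, 0.79, 0.91, 0.70, 0.31 and 0.54. The identical libraries kept gave -0.01 (H2-Ab1, cortex) and 0.26, 0.22, 0.35 and 0.20 (H2-Aa, H2-Eb1, Cd74, H2-DMb1, hippocampus) there, and the share outside genes -0.07 (H2-Ab1) and -0.13 (Cd74) in the cortex. The share outside genes also gave -0.05, -0.08, -0.23 and -0.04 (H2-Ab1, H2-Eb1, Cd74, H2-DMa) for AA + RSD against AA and 0.10, 0.03 and 0.06 (H2-Ab1, Cd74, H2-DMa) for minocycline in AA + RSD cortex, 0.01 for H2-DMb1 in that hippocampus, and -0.12 (cortex) and -0.02 (hippocampus) for H2-DMa in SS + RSD against SS. The number series turned H2-DMa to -0.01 (AA + RSD against AA), 0.04 (minocycline, AA + RSD) and -0.01 (minocycline, SS + RSD) in the cortex and to -0.10 (SS + RSD against SS) and 0.12 (minocycline, SS + RSD) in the hippocampus, Ciita to -0.02 in SS + RSD cortex and H2-DMb1 to 0.11 under minocycline in AA + RSD hippocampus. Within series A, H2-DMa had -0.20 (SS against AA, cortex) and -0.09 (SS + RSD against SS, hippocampus) and Ciita -0.03 (SS + RSD against SS, cortex), and within series B H2-DMb1 had -0.08 (SS against AA, hippocampus). Without mouse 9674 H2-DMa had -0.01 in SS against AA cortex.

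Leaving out each mouse of the smaller group in turn gave the following ranges, with the mouse whose absence turned the sign in parentheses. In the hippocampus SS + RSD against SS gave -0.49 to 2.67 for H2-Aa, -0.43 to 2.25 for H2-Ab1, -0.34 to 2.41 for H2-Eb1, -0.25 to 2.45 for Cd74 (9615) and -0.07 to 0.12 for H2-DMa (9615, 5400). The hippocampus interaction gave -1.27 to 1.90, -1.08 to 1.82, -0.81 to 2.08 and -0.87 to 1.85 for the first 4, -0.12 to 0.72 for H2-DMb1 (all 9615), -0.07 to 0.29 for H2-DMa (9674, 9615) and -1.29 to 0.95 for Ciita (9643, 5391, 5400, 9616). Under minocycline in SS + RSD hippocampus Cd74 had -2.56 to 0.15 and Ciita -1.24 to 0.11, in SS + RSD against AA + RSD Ciita had -0.41 to 1.84, and over 3 conditions H2-DMb1 had -0.05 to 0.23 (each 9615). In the cortex Ciita had -0.10 to 0.24 in SS + RSD against SS (9615), and the interaction gave -0.53 to 0.44 for Ciita (9674, 9616), -0.14 to 0.09 for H2-DMa (9674) and -0.01 to 0.33 for H2-DMb1 (9646). AA + RSD against AA gave -0.15 to 0.61 (H2-Ab1), -0.13 to 0.49 (H2-Eb1), -0.05 to 0.20 (Cd74), -0.32 to 0.61 (Ciita) and -0.07 to 0.15 (H2-DMa) in the cortex and -0.26 to 0.09 (H2-DMa) in the hippocampus, minocycline in AA + RSD cortex -0.74 to 0.02 (H2-Ab1), -0.50 to 0.44 (Ciita) and -0.18 to 0.05 (H2-DMa), and SS + RSD against AA + RSD cortex -0.13 to 0.09 for H2-DMa (all 9674). Minocycline in AA + RSD hippocampus gave -1.13 to 0.32 for Ciita (9643), -0.86 to 0.02 for H2-Ab1 (9646) and -0.03 to 0.32 for H2-DMa (9674). Minocycline alone gave, in the cortex, -0.71 to 0.10 for H2-Aa and -0.70 to 0.10 for H2-Eb1 (7108, 7121), -0.41 to 0.36 for H2-Ab1 (9888, 9889), and -0.51 to 0.30 for Cd74, -0.20 to 0.26 for H2-DMa and -0.01 to 0.56 for H2-DMb1 (9889). In the hippocampus it gave -0.80 to 0.04 for H2-Aa and -0.65 to 0.01 for Cd74 (7108), -0.16 to 0.08 for H2-DMa (7108, 7121) and -0.34 to 0.34 for Ciita (9888).

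Depth limits Ciita most, at 0 to 2.36 CPM. RSD in AA mice rests on 3 mice, 1 of them with its tissues in doubt, and RSD and minocycline follow the number series.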
